A study of Homo sapiens with 6 samples.

Results

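The genes described here are 34 known transcriptional targets of the tumour suppressor p53. They were chosen by name and not by a threshold on their levels: a gene was included if its symbol was on a list of textbook p53 targets, and all 34 were found among the 58735 genes of the table. This list and the other gene lists used below were chosen with earlier results of these data known. Counts over them describe these data and are not an independent test. Messenger RNA levels of the 34 genes were compared between GPR56 knockout (KO) and wild-type (WT) HT1080 cells, with 3 libraries of each genotype. HT1080 is an established human fibrosarcoma line, a tumour line of mesenchymal origin that has lost CDKN2A. GPR56, an adhesion G protein-coupled receptor, is encoded by ADGRG1, which CRISPR-Cas9 had disrupted in the KO cells. Both genotypes were grown in DMEM with 10% FBS, and the descriptions of both mention DMSO, the solvent, with no dose or time. The labels give neither the number of KO clones nor whether the libraries came from separate cultures. A KO to WT difference is therefore also a difference between cell populations, and the spread between libraries may be technical.

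The p53 protein binds DNA as a tetramer and switches on genes that halt the cell cycle, repair DNA, buffer oxidants or start cell death. One of its targets, MDM2, encodes the ubiquitin ligase that marks p53 for degradation, so that p53 activity and MDM2 form a feedback loop. Another, CDKN1A, encodes the cyclin-dependent kinase inhibitor p21, through which p53 lowers the expression of many cell cycle genes. In fibroblasts with a working pathway these targets have a basal level without added damage.

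Levels are FPKM, in which reads are divided by gene length and by library size, as the authors deposited them. The KO values corresponded to 16955111 to 17276269 reads in each library and the WT values to 16410352 to 16461752 reads, so that 1 read in a gene of 1 kb equalled 0.0581 to 0.0602 FPKM. Of 7 mesenchymal marker genes, 6 had a mean of at least 1 FPKM, against 2 of 6 epithelial, 0 of 5 blood and 0 of 4 endothelial markers with a mean that high over the 6 libraries; CDH1 and PTPRC, which define epithelial and blood cells, were listed at 0. The summed level of the mesenchymal markers was 706 to 810 FPKM in KO and 617 to 663 FPKM in WT, and that of the epithelial markers, nearly all of it KRT8 and KRT18, was 108.7 to 111.9 FPKM in KO and 77.6 to 80.9 FPKM in WT. The endothelial markers summed to 1.39 to 1.59 FPKM in KO and 0.416 to 0.427 FPKM in WT, and the blood markers to at most 0.499 FPKM in KO and 0.0729 FPKM in WT; the part of these marker differences in the results was not tested. In bulk RNA, a different share of cells expressing a gene and a different amount of its RNA per cell cannot be told apart. The libraries also differed in their dependence on GC content, the share of G and C bases in a gene's transcripts. Across 11992 genes, Spearman's rho between GC content and a library's deviation from the gene's mean was 0.47, 0.45 and 0.23 in KO libraries 1 to 3, and −0.40, −0.63 and −0.02 in WT libraries 1 to 3. This trend runs with genotype, so the count over the 34 genes and those of the other lists are also given after it was removed together with the trend in gene length; its part in the results was otherwise not tested.

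ADGRG1 (ENSG00000205336, plus strand of chromosome 16, 57610652 to 57665580 on GRCh38) had 2.68, 2.54 and 2.58 FPKM in KO, against 6.61, 6.07 and 6.87 FPKM in WT. The targeted transcript was thus lower in every KO library but still present, with a mean of 0.399 of the WT mean. On the log2(FPKM + 1) scale, used for the log2 fold changes below, the difference was −1.06 ± 0.07 (SE, limma, Benjamini-Hochberg adjusted p = 6.24e-05). The added 1, called the pseudocount, shrinks changes at low levels, so log2 values can be smaller than the ratios of means imply.

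Most of the p53 targets were higher in KO cells. Of the 34 genes, 31 had a mean of at least 1 FPKM over the 6 libraries and were tested, and each of these 31 also reached that mean within both genotypes, the lowest WT mean being 1.68 FPKM. In KO, 24 of the 31 rose, 1 fell (PLK2) and 6 did not pass the adjusted p threshold of 0.05 (ASCC3, GADD45A, MDM4, PERP, RRM2B and SESN2). Over all 12000 genes tested by limma, 43.4% were called, 21% as higher and 22.4% as lower, so a call in itself was common in this comparison. The median log2 fold change was 0.55 over the 31 targets and −0.01 over all genes tested. The KO to WT ratios of mean FPKM of the 24 genes that rose ranged from 1.17 to 3.89. A rise of at least 2-fold on the log2(FPKM + 1) scale, which 1.70% of all genes tested passed with a call, was seen in 8 of the targets: FDXR, TP53INP1, BTG2, CYFIP2, SESN1, DDB2, CDKN1A and TP53I3.

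The same picture held library by library. Relative to each gene's WT mean, the median difference over the 31 targets was 0.63, 0.50 and 0.53 log2 units in the 3 KO libraries, with 29, 28 and 29 of the 31 genes above that mean. The corresponding medians in the WT libraries were −0.00, 0.04 and −0.00. Each gene's WT deviations cancel out by construction, so these WT medians are no independent contrast. The medians of all genes lay between −0.014 and 0.007 in each of the 6 libraries. All 3 KO libraries lay above all 3 WT libraries for 25 of the 31 targets and below them for 1, against 26.4% above and 28.3% below over all genes tested; 5 overlapped. The 34 genes lie on 13 chromosomes, with at most 7 on any 1.

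**Figure D1:**
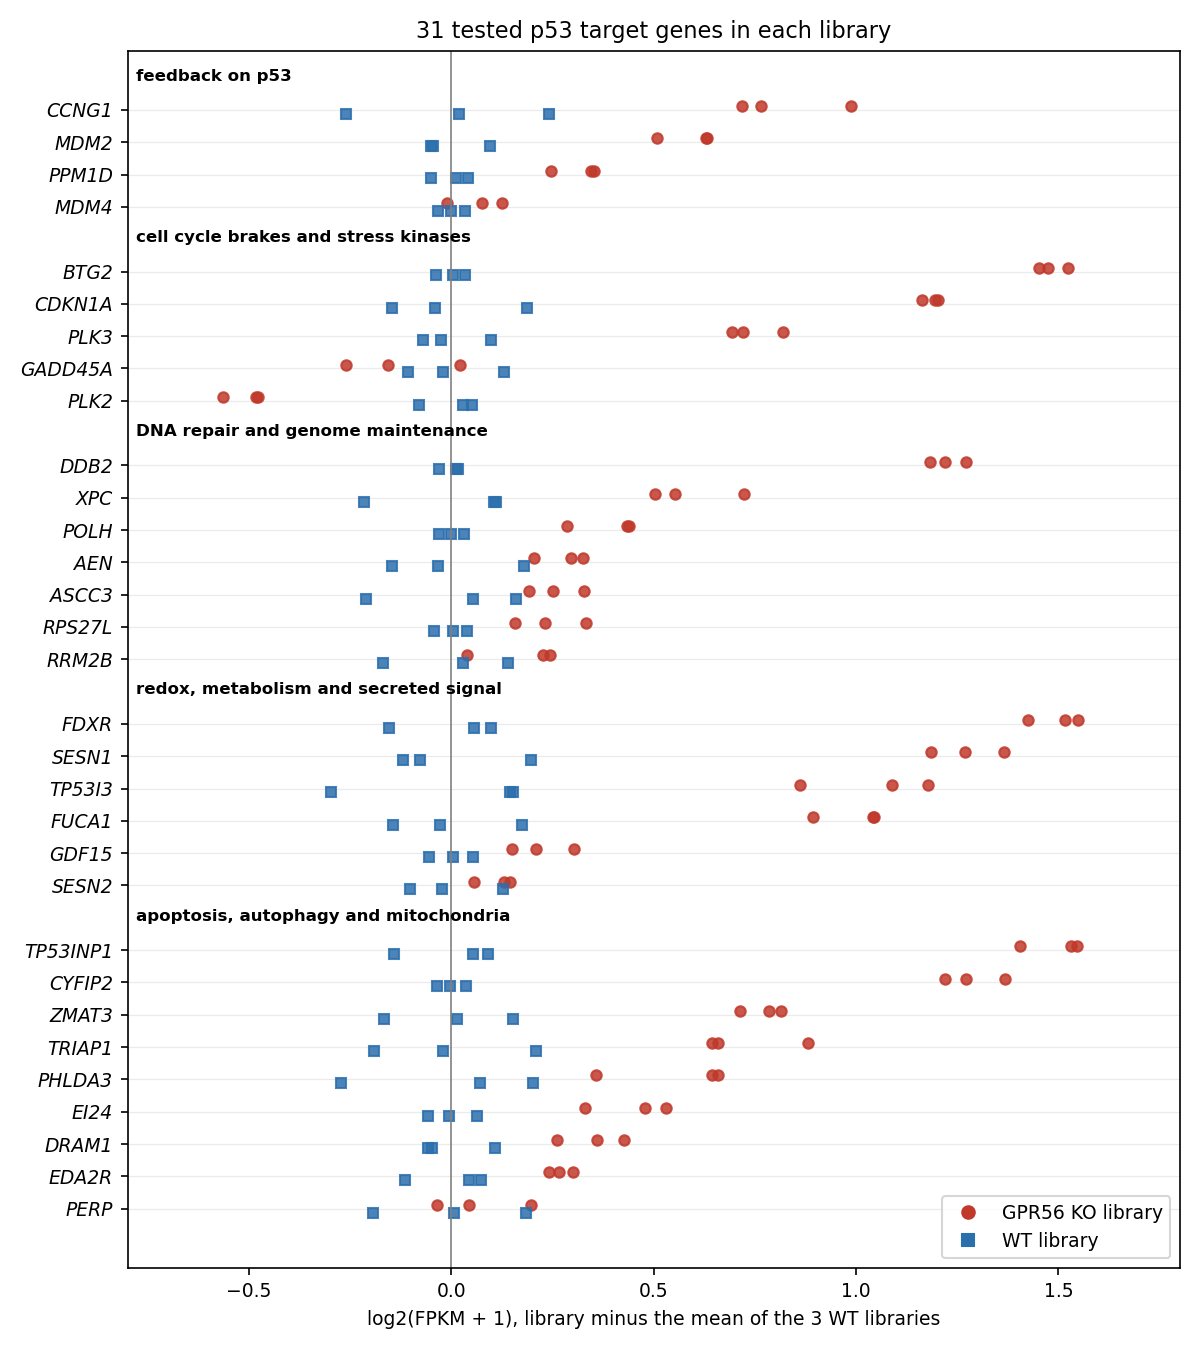
Each row is 1 of the 31 tested p53 targets, grouped by role; circles are the 3 KO libraries and squares the 3 WT libraries, placed by log2(FPKM + 1) minus the WT mean of that gene (vertical line at 0). The KO circles lie right of the line for 28 or 29 genes in each library, and those of PLK2 lie clearly left of it.

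After the GC and length trends had been removed, 26 of the 31 targets were called higher, 2 lower (PLK2 and GADD45A) and 3 did not pass (AEN, GDF15 and SESN2), against 21.4% higher and 22.1% lower over all genes. The median log2 fold change of the targets was then 0.49. Of the genes called higher, 22 were called both before and after the removal, and ASCC3, MDM4, PERP and RRM2B passed only after the removal. These 4 have transcripts with 39.5% to 42.3% G and C, while AEN and GDF15, which no longer passed, have 55.5% and 60.2%. The median GC content of the 31 targets was 47.2%, against 49.1% for all genes tested. By limma-voom on the recovered reads, 25 targets were called higher and 1 lower, against 22.4% and 23.9% of all genes and 46.3% in either direction.

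The p53 response element consists of a pair of 10-base motifs, each of which is called the p53 decamer, set next to each other or up to 13 bases apart. RefSeq promoter windows on GRCh38.p14, from 250 bases before to 50 bases after a transcription start, were matched by symbol for 29 of the 34 genes (not for ASCC3, GADD45A, PHLDA3, RRM2B or TP53INP1). Both strands were searched for decamer pairs, which may overlap other motifs, with at most 3 mismatches and none at the core C (position 4) or core G (position 7) of either decamer. A pair with at most 2 mismatches was found in 4 of the 29 genes (13.8%), against 3.62% of all genes with such windows. With 3 mismatches allowed these shares were 31.0%, which is 9 genes, and 15.3%. A gene counts here if any of its windows matches, and the 29 genes had 42 windows. Counted by window, 5 of these 42 held a pair with at most 2 mismatches, against 2.93% of all windows. An exact single decamer was in 7 of the 29 (24.1%), against 8.06% of all genes. These matches describe letters near the start only; p53 sites known further upstream or deep in introns are outside such windows. The 9 sequences below are printed because they are the closest matches near a start and include genes with large and with small differences between genotypes; the decamers are in capitals.
DDB2, chr11:47214975-47215003, plus strand, pair without a mismatch, untranslated exon: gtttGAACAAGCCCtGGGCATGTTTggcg
AEN, chr15:88621301-88621330, plus strand, 2 mismatches, untranslated exon: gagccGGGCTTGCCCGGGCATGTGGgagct
FDXR, chr17:74872996-74873025, minus strand, 2 mismatches, untranslated exon: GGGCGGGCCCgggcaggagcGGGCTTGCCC
MDM2, chr12:68808918-68808947, plus strand, 2 mismatches, intron: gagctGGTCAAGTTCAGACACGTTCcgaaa
GDF15, chr19:18386181-18386207, plus strand, 3 mismatches, coding exon: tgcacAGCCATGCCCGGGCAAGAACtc
PLK2, chr5:58460193-58460221, minus strand, 3 mismatches, untranslated exon: acaAGACTTGCTTcccGGCCACGCGCgct
RPS27L, chr15:63157522-63157551, minus strand, 3 mismatches, untranslated exon: aggagGGCCTAGAGCAGACAAGCCCgcccc
SESN1, chr6:109009013-109009042, minus strand, 3 mismatches, intron: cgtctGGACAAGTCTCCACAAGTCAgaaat
ZMAT3, chr3:179071865-179071894, minus strand, 3 mismatches, untranslated exon: ccGGGCCTGCTCcgccaaGCACATGCGCag
The DDB2 pair begins 6 bases and ends 26 bases after a start and was the only one without a mismatch among the 29 genes; 10 of 35116 windows held such a pair. The MDM2 pair lies 94 to 75 bases before a start within the gene, at the promoter that is known to respond to p53. The PLK2 pair, with 3 mismatches, belongs to the 1 tested target that fell. With 1 such gene, the scan cannot show whether a match goes with the direction of change.

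Among the feedback regulators of p53, 3 of 4 rose, beside 21% of all genes tested. The median log2 fold change of the 4 was 0.45. MDM2 (plus strand of chromosome 12, 68808176 to 68850686) had 16.1, 14.7 and 16.05 FPKM in KO, against 9.64, 10.8 and 9.68 FPKM in WT. The groups did not overlap, and the ratio of the means, 15.6 ± 0.8 over 10.0 ± 0.64 FPKM (SD, n = 3 each), was 1.56 (log2 0.59 ± 0.07 SE, limma adjusted p = 0.000711). CCNG1, which encodes cyclin G1, a partner of the phosphatase PP2A that acts on MDM2, had 49.97, 51.6 and 60.4 FPKM in KO and 30.4, 35.6 and 24.9 FPKM in WT. Each KO library was higher than each WT library for CCNG1, a 1.78-fold rise (log2 0.82, limma adjusted p = 0.00285). PPM1D, the phosphatase WIP1 that removes activating phosphates from p53 and the kinases above it, averaged 5.13 ± 0.25 FPKM in KO and 3.92 ± 0.16 FPKM in WT, a log2 fold change of 0.32 (limma adjusted p = 0.00716). MDM4, the MDM2 paralog that binds p53 without being an effective ligase by itself, had 2.77, 3.14 and 2.998 FPKM in KO, against 2.79, 2.89 and 2.71 FPKM in WT. These groups overlapped, and the 95% interval of the log2 fold change, −0.10 to 0.23, included 0 (limma adjusted p = 0.503); after removal of the GC and length trends it was 0.27 (adjusted p = 0.0165). Within libraries, the ratio of MDM2 to MDM4 FPKM was 5.80, 4.68 and 5.35 in KO and 3.45, 3.73 and 3.57 in WT. The ratio was thus higher in all 3 KO libraries, and the exact two-sided permutation p was 0.1, the smallest that 3 against 3 libraries allow. This ratio and the paralog ratios given below combine values already compared gene by gene and are no separate support.

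The cell cycle brakes and stress kinases held both the most abundant strong riser and the 1 tested target that fell. CDKN1A (plus strand of chromosome 6, 36676460 to 36687339), which encodes p21, had 143, 144 and 139.7 FPKM in KO, against 60.0, 55.7 and 70.5 FPKM in WT. The KO libraries differed from each other by little and stood well above WT, at 142 ± 2.0 against 62.1 ± 7.6 FPKM (SD, n = 3 each), a 2.29-fold rise (log2 1.19 ± 0.09 SE, limma adjusted p = 0.000138). BTG2 (plus strand of chromosome 1, 203305491 to 203309602), an antiproliferative cofactor of mRNA deadenylation, had 15.1, 14.9 and 15.7 FPKM in KO and 4.82, 4.66 and 4.95 FPKM in WT. It showed the smallest adjusted p of the 34 genes (8.28e-06 by limma), with a ratio of 3.17 and a log2 fold change of 1.48 ± 0.06 (SE). PLK3, a polo-like kinase of the stress response, had 17.1, 15.8 and 15.5 FPKM in KO against 9.04, 8.74 and 9.94 FPKM in WT, a 1.75-fold rise (log2 0.74, limma adjusted p = 0.000289). PLK2, its paralog, which acts in centriole duplication, had 22.2, 23.6 and 23.7 FPKM in KO against 34.01, 34.6 and 31.5 FPKM in WT. PLK2 (minus strand of chromosome 5, 58453982 to 58460260) thus went the other way without overlap, with a KO to WT ratio of 0.694 (log2 −0.51 ± 0.06 SE, limma adjusted p = 0.00085). The ratio of PLK3 to PLK2 FPKM was 0.768, 0.672 and 0.656 in KO and 0.266, 0.253 and 0.316 in WT (exact two-sided permutation p = 0.1, the smallest possible). GADD45A, which binds PCNA and p21 and activates stress kinase signalling, had 32.6, 28.7 and 26.6 FPKM in KO and 31.6, 29.7 and 35.2 FPKM in WT. Its groups overlapped and its log2 fold change of −0.13 (95% interval −0.35 to 0.09) did not pass (limma adjusted p = 0.298), but after removal of the GC and length trends it was −0.31 (adjusted p = 0.00858).

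Among the DNA repair and DNA damage genes, 5 of 7 rose, beside 21% of all genes tested. The median log2 fold change of the 7 was 0.28. DDB2 (plus strand of chromosome 11, 47214465 to 47239240), the damage-binding subunit that starts nucleotide excision repair in chromatin, had 35.9, 34.7 and 33.8 FPKM in KO, against 14.4, 13.98 and 14.5 FPKM in WT. The spread within each genotype was small beside the gap between them, a 2.43-fold rise (log2 1.23 ± 0.05 SE, limma adjusted p = 1.69e-05). XPC, which recognises distorted DNA in the same repair pathway, had 10.1, 8.52 and 8.84 FPKM in KO and 6.25, 4.78 and 6.22 FPKM in WT, a 1.59-fold rise (log2 0.59, limma adjusted p = 0.00445). POLH, the DNA polymerase that copies past ultraviolet lesions, averaged 20.1 ± 1.3 FPKM in KO and 15.1 ± 0.34 FPKM in WT, a 1.33-fold rise (limma adjusted p = 0.00307). Both of these genes kept their KO libraries above all WT libraries. RPS27L, a ribosomal protein paralog induced by p53, averaged 14.6 ± 0.95 FPKM in KO and 12.2 ± 0.37 FPKM in WT, and its log2 fold change of 0.24 had an adjusted p of 0.022 by limma. This call rested on single libraries: the limma adjusted p was 0.0707 without KO library 1, 0.0559 without KO library 3 and 0.0886 without WT library 1. After removal of the GC and length trends the log2 fold change of RPS27L was 0.46 (limma adjusted p = 0.0018). Reads shared with its relative RPS27 or their copies could not be assigned with certainty, since the counting is not described in the sources used here. AEN, a nuclease that helps digest DNA during apoptosis, had 28.8, 28.2 and 26.4 FPKM in KO and 22.2, 20.5 and 25.9 FPKM in WT. Its call was the weakest of the 24 (log2 0.28, limma adjusted p = 0.0448), was lost when any library other than WT library 3 was left out (adjusted p 0.0619 to 0.13), and was lost after removal of the GC and length trends (0.16, adjusted p = 0.0771).

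RRM2B and ASCC3 completed the repair genes and did not pass the test. RRM2B, the small subunit of ribonucleotide reductase that supplies nucleotides outside S phase, had 15.2, 13.2 and 15.4 FPKM in KO and 13.1, 14.3 and 11.3 FPKM in WT, groups that overlapped. ASCC3, a helicase that unwinds alkylated DNA, had 14.9, 15.6 and 16.5 FPKM in KO and 13.4, 14.5 and 11.0 FPKM in WT. Its groups did not overlap, but its log2 fold change of 0.26 had an adjusted p of 0.076 by limma; without WT library 2 it was 0.0321. After removal of the GC and length trends both passed, RRM2B at 0.44 (limma adjusted p = 0.00138) and ASCC3 at 0.56 (limma adjusted p = 0.00059).

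The genes of redox control, metabolism and secreted factors had the highest median of the groups, a log2 fold change of 1.02. Of the 6 tested, 5 were called higher, beside 21% of all genes tested. FDXR (minus strand of chromosome 17, 74862497 to 74873031), ferredoxin reductase of the mitochondrial electron chain for iron-sulfur clusters and steroid synthesis, had 23.3, 21.8 and 23.8 FPKM in KO, against 7.82, 6.63 and 8.07 FPKM in WT. It was 3.06-fold higher in KO, or by 1.497 ± 0.08 log2 units (SE, limma adjusted p = 3.3e-05), and by 1.28 after removal of the GC and length trends. SESN1 (minus strand of chromosome 6, 108986437 to 109094819), a sestrin that restrains mTORC1, had 11.4, 12.1 and 13.01 FPKM in KO against 4.005, 5.23 and 4.16 FPKM in WT. This was a 2.72-fold rise (log2 1.27 ± 0.10 SE, limma adjusted p = 0.000145), with every KO value more than double every WT value. SESN2, a sestrin known also as a target of the stress factor ATF4, had 19.7, 20.996 and 20.8 FPKM in KO and 18.6, 17.5 and 20.7 FPKM in WT. Its groups overlapped, and its log2 fold change was 0.11 (95% interval −0.06 to 0.28, limma adjusted p = 0.269) before and −0.07 after removal of the GC and length trends (adjusted p = 0.263). The ratio of SESN1 to SESN2 FPKM was 0.578, 0.577 and 0.626 in KO and 0.216, 0.299 and 0.201 in WT (exact two-sided permutation p = 0.1, the smallest possible).

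TP53I3, a quinone oxidoreductase also known as PIG3, had 20.2, 18.9 and 16.02 FPKM in KO and 9.36, 6.63 and 9.41 FPKM in WT. It rose 2.17-fold (log2 1.04 ± 0.14 SE, limma adjusted p = 0.00128). FUCA1, the lysosomal fucosidase, had 4.07, 4.63 and 4.62 FPKM in KO and 2.08, 1.47 and 1.67 FPKM in WT. Its ratio of 2.55 was 0.99 as a log2 fold change, on a scale whose pseudocount of 1 shrinks changes at such low levels (limma adjusted p = 0.000396). GDF15, a secreted stress cytokine and the most abundant of the 34 genes, had 158, 151 and 168 FPKM in KO and 131, 136 and 141 FPKM in WT. The KO libraries were all higher, but the ratio was only 1.17 (log2 0.22, limma adjusted p = 0.0322), and the call was lost when any library except WT library 3 was left out (adjusted p 0.0575 to 0.128). After removal of the GC and length trends its log2 fold change was 0.02 (limma adjusted p = 0.823). TIGAR, a phosphatase that diverts sugar from glycolysis, was below the level needed for a test, with 0.392, 0.391 and 0.840 FPKM in KO and 0.412, 0.493 and 0.299 FPKM in WT. These values come from 110 reads in KO and 81 in WT in total, and the groups overlapped.

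**Figure D2:**
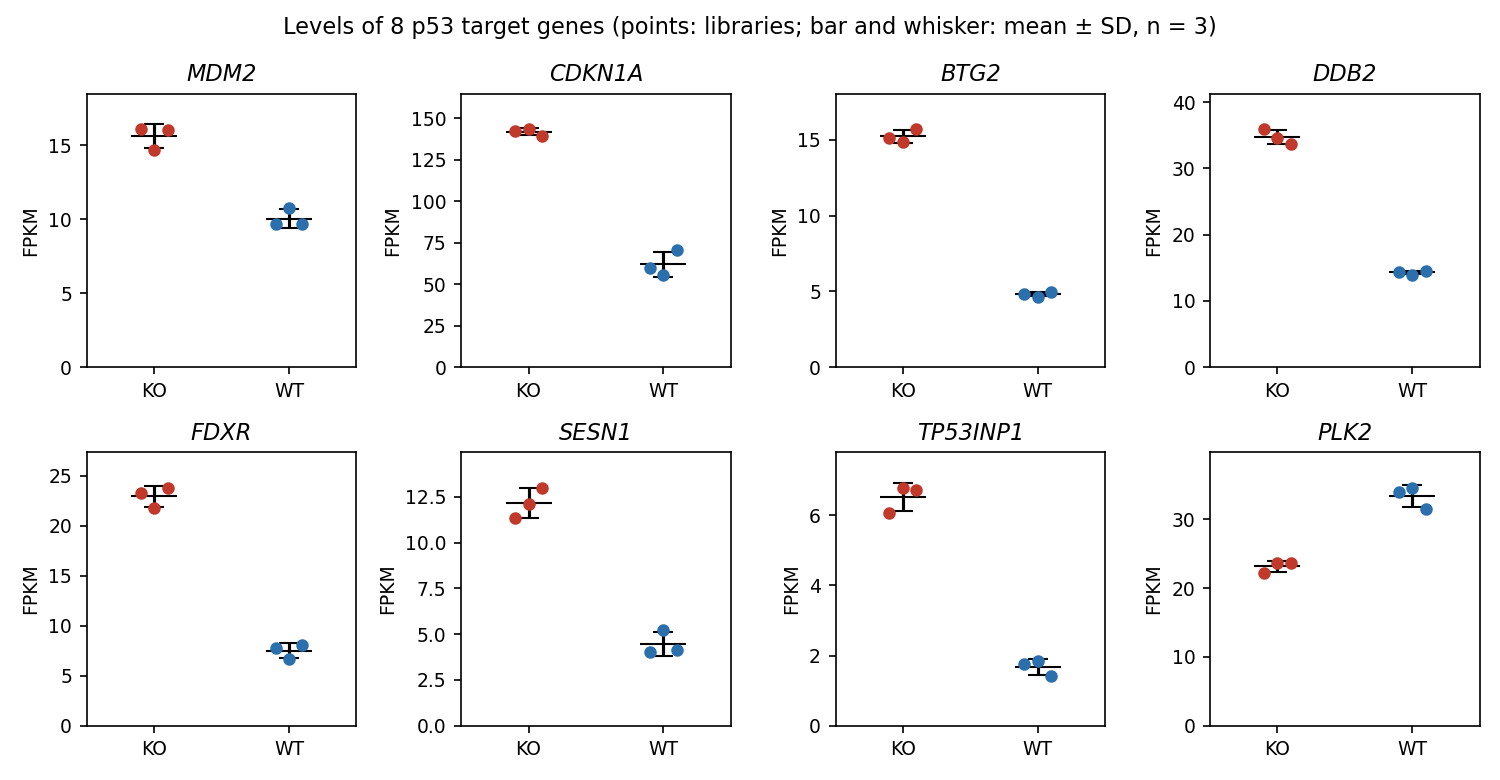
FPKM of 8 p53 targets, 1 panel per gene with its own axis from 0, KO left of WT; points are libraries, and the bar and whiskers are the mean ± SD (n = 3 each). The KO points lie above all WT points in the panels of MDM2, CDKN1A, BTG2, DDB2, FDXR, SESN1 and TP53INP1, and below them in that of PLK2.

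Of the genes of apoptosis, autophagy and mitochondrial quality control, 8 of 9 tested rose, beside 21% of all genes tested. The median log2 fold change of the 9 was 0.55. TP53INP1, a nuclear and autophagic cofactor of p53 on chromosome 8, had 6.07, 6.79 and 6.72 FPKM in KO, against 1.77, 1.84 and 1.42 FPKM in WT. Its KO to WT ratio of 3.89 was the highest among the 31 tested targets (log2 1.49 ± 0.09 SE, limma adjusted p = 4.32e-05). CYFIP2, a member of the actin-regulating WAVE complex with a pro-apoptotic role under p53, had 16.6, 17.2 and 18.5 FPKM in KO against 6.38, 6.75 and 6.55 FPKM in WT. It rose 2.66-fold (log2 1.29 ± 0.06 SE, limma adjusted p = 2.35e-05), with no overlap. ZMAT3, a zinc finger RNA-binding protein that acts in splicing, had 16.8, 15.99 and 17.2 FPKM in KO and 9.45, 10.5 and 8.23 FPKM in WT, a 1.77-fold rise (log2 0.77, limma adjusted p = 0.000661). TRIAP1, a mitochondrial lipid transfer protein that restrains apoptosis, had 43.2, 42.7 and 50.6 FPKM in KO and 26.6, 31.4 and 23.5 FPKM in WT, a 1.68-fold rise (log2 0.73, limma adjusted p = 0.00253). Genes that promote apoptosis and a gene that restrains it were thus both among those that rose.

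Smaller rises were measured for EI24, DRAM1, PHLDA3 and EDA2R. EI24, an endoplasmic reticulum protein of autophagy, averaged 75.5 ± 5.4 FPKM in KO and 55.0 ± 2.4 FPKM in WT (ratio 1.37, limma adjusted p = 0.00279). DRAM1, a lysosomal membrane protein that promotes autophagy, averaged 15.3 ± 0.92 FPKM in KO and 11.8 ± 0.84 FPKM in WT (ratio 1.30, limma adjusted p = 0.00807). PHLDA3, which blocks AKT at the membrane, had 45.6, 46.1 and 37.3 FPKM in KO and 30.3, 23.7 and 33.3 FPKM in WT (log2 0.55, limma adjusted p = 0.0155). EDA2R, a receptor of the tumour necrosis factor family, averaged 9.19 ± 0.21 FPKM in KO and 7.47 ± 0.58 FPKM in WT (log2 0.27, limma adjusted p = 0.0174). The calls of PHLDA3 and EDA2R rested on single libraries: without KO library 1 the limma adjusted p was 0.0523 for PHLDA3 and 0.0578 for EDA2R, and without KO library 2 it was 0.0574 for PHLDA3 and 0.0577 for EDA2R. Without the filter on low values PHLDA3 had a limma adjusted p of 0.056, and after removal of the GC and length trends its log2 fold change was 0.36 (adjusted p = 0.0226). PERP, a desmosomal and apoptotic membrane protein, had 44.5, 42.0 and 49.6 FPKM in KO and 43.4, 49.2 and 37.6 FPKM in WT. These values overlapped widely (log2 0.07, 95% interval −0.19 to 0.32, limma adjusted p = 0.649), and the log2 fold change was −0.03 without WT library 3 and 0.27 after removal of the GC and length trends (limma adjusted p = 0.0122). TP53I11 was below the level needed for a test, with 23 reads in KO and 41 in WT in total, and its groups overlapped at 0.0873, 0.0792 and 0.0164 FPKM in KO and 0.0805, 0.0654 and 0.188 FPKM in WT.

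**Figure D3:**
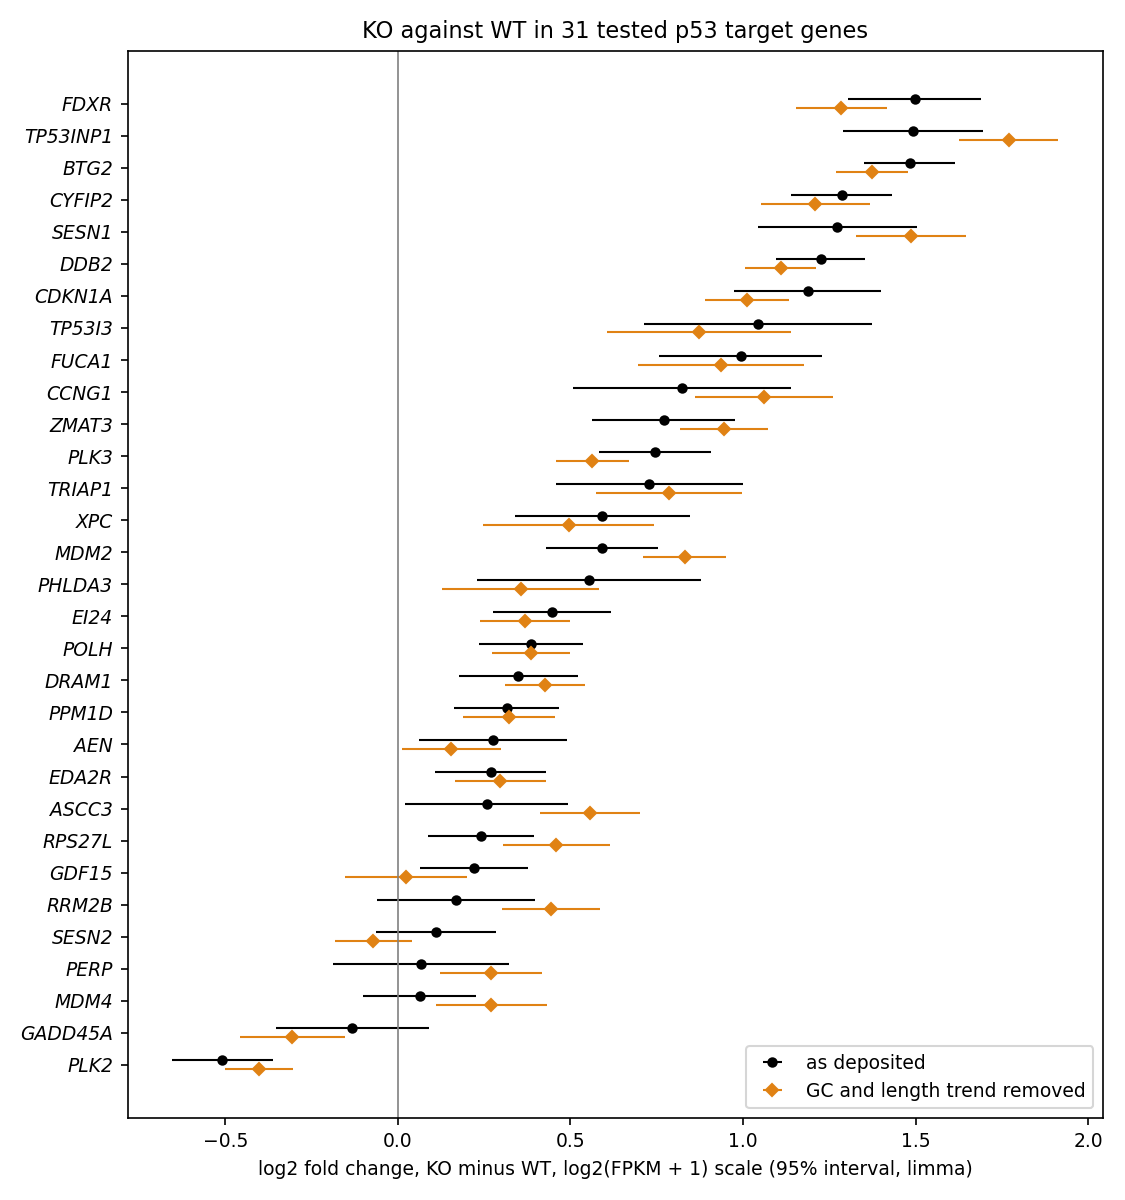
Log2 fold changes, KO minus WT, of the 31 tested p53 targets with their 95% intervals, ordered by size, as deposited and after removal of the GC and length trends. PLK2 lies below 0 in both fits, and SESN2 lies on either side of 0.

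SPATA18, also known as Mieap, acts in mitochondrial quality control and was the 1 target without any read in KO. It lies on the plus strand of chromosome 4 (52051331 to 52097292) and had 0 reads in each KO library, against 38, 64 and 44 reads in WT, or 0.455, 0.778 and 0.535 FPKM. Against the limit that a count of 0 allows, 3 reads over the KO group, it was at least 49.5-fold lower in KO; this covers counting error only. Its mean over the 6 libraries was below 1 FPKM, so it was not among the genes tested; without that filter its log2 fold change was −0.66 (limma adjusted p = 0.00569). The nearest gene with at least 30 reads, SGCB, which encodes a sarcoglycan and whose lower end lies at −30.6 kb from that of SPATA18, kept 741, 736 and 792 reads in KO, against 964, 1222 and 911 in WT. SGCB was thus still expressed in all 3 KO libraries, with a log2 fold change of −0.42 (limma adjusted p = 0.0189) and of −0.19 after removal of the GC and length trends (adjusted p = 0.0644). On the other side USP46, a deubiquitinase whose lower end is 539.6 kb away, had 614, 575 and 590 reads in KO and 729, 751 and 633 in WT. DCUN1D4, a cofactor of cullin neddylation at −208.3 kb, fell (log2 −0.41, limma adjusted p = 0.00827), a call that was lost after the same removal (−0.11, adjusted p = 0.114), while the noncoding RNA DANCR, at 661.1 kb, rose (log2 0.83, limma adjusted p = 0.000211). These neighbours were looked at after the value of SPATA18 had been seen.

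**Figure D4:**
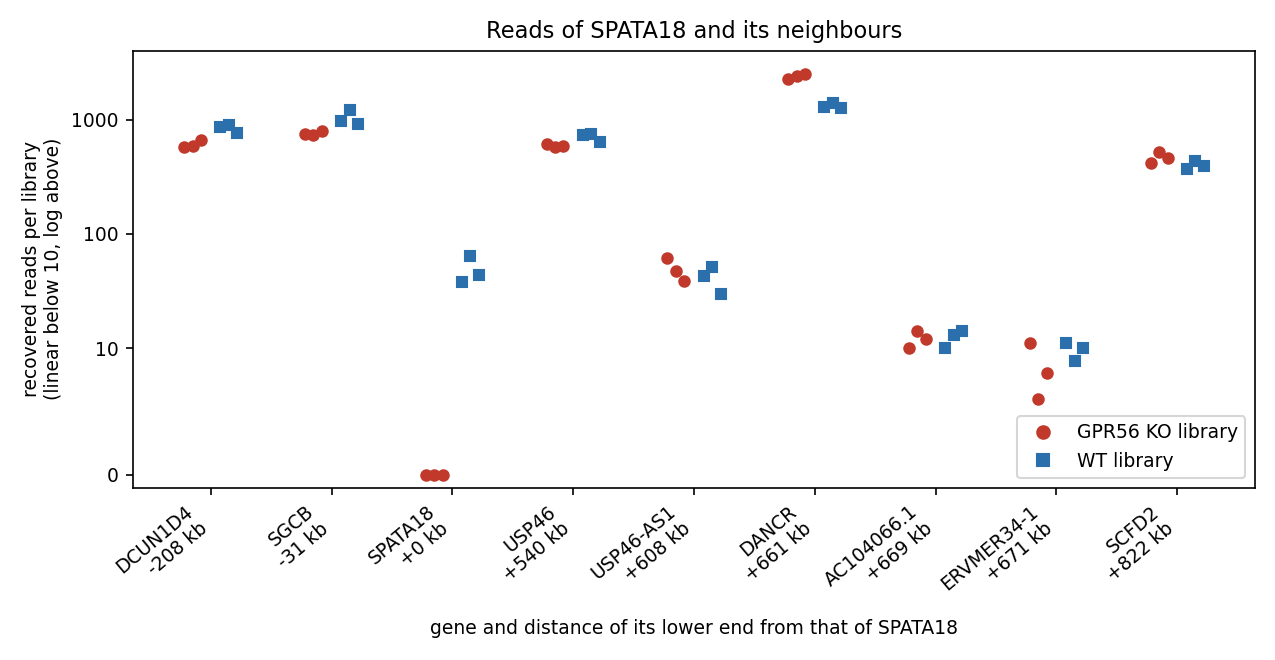
Recovered reads per library (linear below 10, log above) for SPATA18 and the 8 other genes within 1000 kb that had at least 30 reads over the 6 libraries, ordered by the distance of their lower ends in kb; KO circles stand left of WT squares. Of these genes SPATA18 is at 0 in the KO libraries, and SGCB has 736 to 792 reads there.

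Genes that act on or beside p53 were examined as well. TP73, which encodes a related transcription factor, had 13 reads in KO and 13 in WT in total, and TP63, which encodes another, had 1 in KO and 7 in WT. CDKN2A, whose ARF product inhibits MDM2, had 0 reads in both genotypes. Among 39 tested regulators of p53 (of 42 listed), 9 were higher and 12 lower by the test, 18 did not pass, beside 21% higher and 22.4% lower over all genes, so the higher count is near that share. Their median log2 fold change was −0.07, and after removal of the GC and length trends 7 were higher and 9 lower. USP10, a deubiquitinase that stabilises p53, averaged 18.7 ± 0.75 FPKM in KO and 27.2 ± 0.27 FPKM in WT (log2 −0.52, limma adjusted p = 0.000515). BRD7 and SETD7, a chromatin cofactor and a lysine methyltransferase that act on p53, also fell, with log2 fold changes of −0.54 and −0.50.

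A list of 65 further p53 targets, not among the 34, was examined beside them: 54 were tested, of which 32 were higher and 6 lower by the test and 16 did not pass, beside 21% higher and 22.4% lower over all genes. The median log2 fold change was 0.35 (32 higher and 6 lower also after removal of the GC and length trends). TGFA, a ligand of the epidermal growth factor receptor, rose most clearly, at 34.1 ± 1.7 FPKM in KO and 8.66 ± 0.45 FPKM in WT (log2 1.86, limma adjusted p = 6.41e-06). CMBL, a hydrolase, and PLXNB2, a semaphorin receptor, rose 2.31-fold and 2.04-fold. Of the classical death genes of p53, BBC3, which encodes PUMA, averaged 24.3 ± 2.4 FPKM in KO and 10.7 ± 1.9 FPKM in WT (log2 1.13, limma adjusted p = 0.000735). BAX, the pore-forming effector, averaged 91.1 ± 12.2 FPKM in KO and 55.7 ± 12.7 FPKM in WT (log2 0.72, limma adjusted p = 0.013; 0.0517 without the filter on low values), and TNFRSF10B, a TRAIL receptor, rose 1.51-fold. PMAIP1, which encodes the BH3-only protein NOXA, went the other way, with 17.5, 14.3 and 16.4 FPKM in KO against 55.8, 55.1 and 50.8 FPKM in WT. Its KO to WT ratio of 0.298 was a lower one than that of any tested member of the 34 (log2 −1.69, limma adjusted p = 2.49e-05). FAS, a death receptor, averaged 5.50 ± 0.52 FPKM in KO and 5.27 ± 0.96 FPKM in WT and did not pass (log2 0.06, limma adjusted p = 0.725).

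The genes that p53 is known to lower through p21 were examined as the opposite arm. Of 39 such cell cycle genes 37 were tested, and 19 fell while 18 did not pass, beside 22.4% of all genes called lower; the median log2 fold change was −0.21. After removal of the GC and length trends 23 were lower and 1 higher. CENPE, a kinetochore motor, averaged 1.58 ± 0.15 FPKM in KO and 4.87 ± 0.79 FPKM in WT (log2 −1.18, limma adjusted p = 0.000324). PLK4, the kinase of centriole duplication, averaged 4.43 ± 0.13 FPKM in KO and 8.76 ± 0.47 FPKM in WT (log2 −0.85, limma adjusted p = 0.000124). CDC25A and KIF23, which act at entry into S phase and in cytokinesis, fell by 0.55 and 0.59 on the log2 scale. CDK1, the mitotic kinase, averaged 14.1 ± 1.7 FPKM in KO and 26.9 ± 3.9 FPKM in WT (log2 −0.88, limma adjusted p = 0.00143), while its partner CCNB1 averaged 108 ± 13 FPKM in KO and 95.5 ± 11 FPKM in WT and did not pass (limma adjusted p = 0.242). FOXM1, a transcription factor of mitotic genes, averaged 30.2 ± 0.65 FPKM in KO and 35.0 ± 1.5 FPKM in WT (log2 −0.21, limma adjusted p = 0.023). The FOXM1 call was lost when any KO library or WT library 1 was left out (limma adjusted p 0.0516 to 0.0993), and its log2 fold change was −0.33 after removal of the GC and length trends. That removal brought CENPE to −0.75, KIF23 to −0.38 and CDK1 to −0.51, and all 3 still passed the test. Within this pair of partners, CDK1 fell and CCNB1 did not pass the test.

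**Figure D5:**
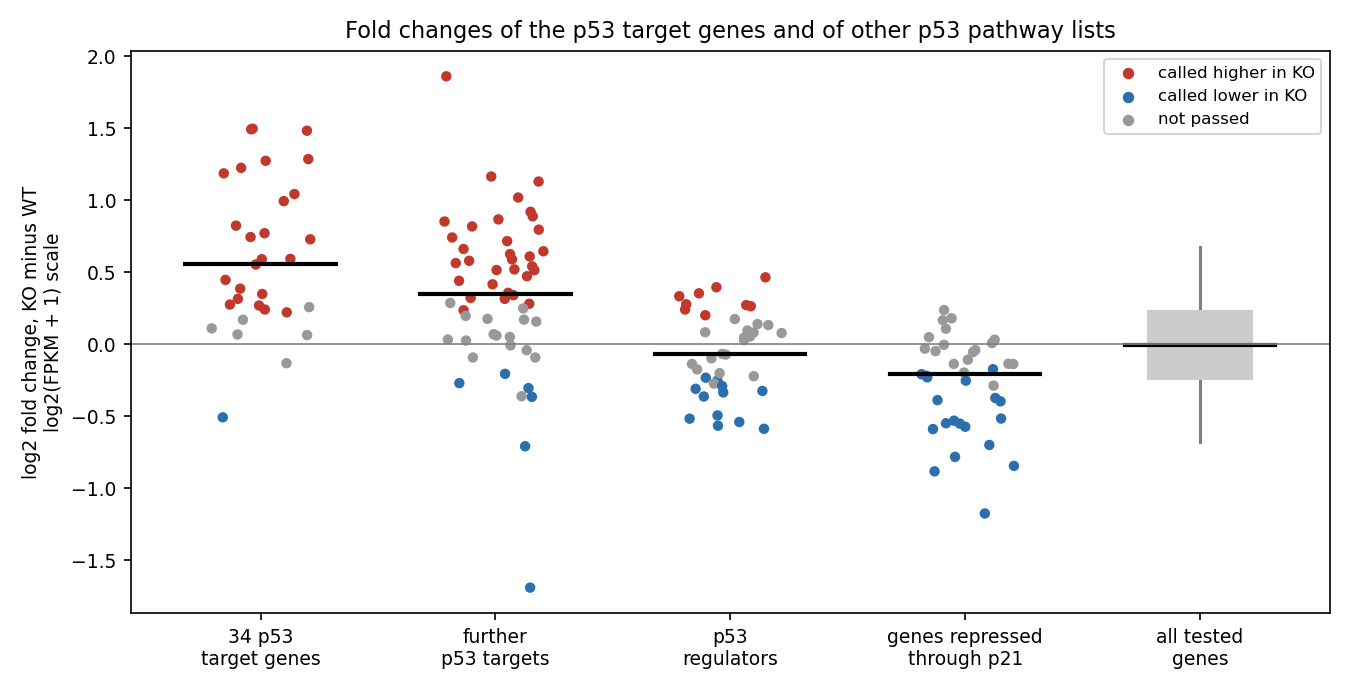
Log2 fold changes, KO minus WT, of the tested genes of the 34 targets and of the further targets, the p53 regulators and the genes repressed through p21, with 1 point per gene coloured by its call and a line at each median; for all tested genes the box spans the quartiles and the whiskers leave out 5% on each side. The medians are 0.55, 0.35, −0.07 and −0.21 log2 units.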

How the data were processed

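Per the labels' protocols, a Qiagen RNeasy kit was used for RNA and a SMARTER mRNA-Seq kit for the libraries. The authors deposited 1 table of FPKM values for 58735 genes in 6 libraries; how reads were aligned and counted, and with which strand setting, is not given in the sources used here. Mouse builds (GRCm38, mm10) are named in the submitters' processing notes, but the identifiers, starts and ends of 58735 genes equal human GENCODE release 29, so positions are on GRCh38. FPKM times gene length lay within 0.02 of a whole read, which gave the read numbers.

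The members and lists were chosen with earlier results of these data known. All 34 members are named; from other lists, ADGRG1, up to 4 genes with the smallest adjusted p, and TP73, TP63, CDKN2A, BAX, BBC3, PMAIP1, FAS, TNFRSF10B, CDK1, CCNB1 and FOXM1. Some genes that this rule selects are not reported here.

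limma 3.58.1 (R 4.3.3; trend) was fitted to log2(FPKM + 1) of the 12000 genes whose mean was 1 FPKM or more, with genotype as the only term. The two-sided p-values were Benjamini-Hochberg adjusted over all genes, with a threshold of 0.05. Fold changes are KO minus WT. In the GC and length correction, the trend of each library's deviations from gene means was subtracted. It was fitted by splines in the GC content of GENCODE transcripts and in the log of the gene length that the authors deposited. P-values measure the spread between libraries that may be technical replicates. Within genotypes, the libraries of a pair differed beyond sampling noise (a chi-square of 4.92 to 16.5 per degree of freedom). They were thus not 1 set of reads split up, but this cannot show that they came from separate cultures. Here n counts libraries, 3 per genotype. Exons of 12 members overlap another gene, and none of the 12 has at least 10% of its bases covered by a partner that reaches 10% of its FPKM. Below that limit, LSM3 on the opposite strand covers 6.63% of the exonic bases of XPC. Over the 6 libraries LSM3 averaged 11.65 FPKM and XPC 7.445 FPKM. The part of this overlap in the XPC values was not tested. Promoter sequences are from RefSeq (GRCh38.p14). Alternatives were another pseudocount, filter or scaling, limma-voom on recovered reads, the GC correction, a replicate block and each library left out.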

Additional observations from a re-analysis of the deposited data

How the results depend on the processing

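Over the alternatives for the 31 tested targets, 386 gene results kept direction and side of the threshold, 30 were no longer past it, 11 newly passed it and 3 reversed, the cause of which was not tested. SESN2 was −0.070 after the GC and length correction, with and without the replicate block, and with 1 library left out PERP ranged from −0.028 (without WT library 3) to 0.16 and FAS, outside the 34, from −0.065 (without WT library 3) to 0.16. In every setting, including the filter at a mean of 5 FPKM, 16 of the targets were called higher. TP53INP1, PPM1D and FUCA1 are not among these 16 because their means lie below that filter. Their calls held in each of the 13 alternatives in which they were tested.

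Of the targets, 2 were called lower after the GC correction, with no filter and with the block plus GC correction. With a filter at a mean of 5 FPKM, 3203 genes of all were called (1639 higher, 1564 lower). Genes repressed through p21 called higher were 0 in the test used (limma; 2 at an unadjusted p under 0.05, 0 by limma-voom), 1 after the GC correction with or without the block, and 0 to 1 with 1 library left out. Of the p53 regulators 4 were called higher with the block and GC correction. Leaving out each library gave 3789 to 5372 calls over all genes, 19 to 24 targets higher, and −1.10 to −1.03 for ADGRG1.

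Same-numbered KO and WT libraries deviated with correlations of −0.07, −0.18 and −0.35, which gave no sign of pairing by number. Deviations within a genotype sum to 0, which ties these values to each other. Whether same-numbered libraries were prepared together therefore remains unknown. The replicate block gave 3866 calls over all genes (1900 higher, 1966 lower), 21 targets higher and 1 lower, and 3 further targets lower. Depth limits TIGAR, TP53I11 and SPATA18, which had at most 146 reads per genotype.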

Other observations

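The spread of the p53 targets between libraries of 1 genotype followed GC content. Across the 31 tested targets, Spearman's rho between a gene's GC content and its deviation from the WT mean was −0.02 in WT library 1, −0.83 in WT library 2 and 0.87 in WT library 3; deviations within a genotype sum to 0, so these values are tied to each other. CCNG1, with a GC content of 39.8%, and SESN1, with 41.2%, were highest in WT library 2, while CDKN1A (58.6%) and PHLDA3 (61.3%) were lowest there. In KO the values of rho were 0.38, 0.20 and −0.48. The median coefficient of variation of the tested targets was 6.04% in KO and 8.67% in WT.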
